A study of Caenorhabditis elegans with 2 samples.

Results

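Of the 30000 candidate regions pooled from both replicates of a chromatin immunoprecipitation sequencing (ChIP-seq) experiment on SNPC-4 in *Caenorhabditis elegans*, 269 lay at autosomal tRNA genes. These members are the regions on chromosomes I, II, III, IV and V whose summit, the position of highest signal, fell within 300 bp of the annotated 5′ end of a tRNA gene. They came from 27160 candidates on these 5 chromosomes, and 333 autosomal tRNA genes were considered, with the 3 named sup- left out. The rule used position alone and not the height of a region. The animals were hermaphrodite young adults of strain YL487, which carries SNPC-4 fused at its C-terminus to GFP and FLAG, and they were collected 60 h after synchronization as starved L1 larvae. Whole animals were used, so germline and somatic cells are mixed in every value, and the antibody was directed against GFP. The study has 1 group with 2 biological replicates and no comparison group among the samples given here, so the values below compare places in the genome and no test over samples was possible. The signal is the authors' measure of the strength of a region. Neither its scale nor the read depth behind it is known here.

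SNPC-4 is the *C. elegans* counterpart of SNAPC4. That protein is a DNA-binding subunit of SNAPc, which recognizes the proximal sequence element of small nuclear RNA promoters and serves both RNA polymerase II and RNA polymerase III there. Most tRNA genes are transcribed by RNA polymerase III from a promoter inside the gene, where the A box and the B box are bound by TFIIIC, which in turn places TFIIIB just upstream of the gene. The selenocysteine tRNA gene is the textbook exception, since in vertebrates it has a proximal sequence element and a TATA box upstream of the gene. SNPC-4 is also known in *C. elegans* for its part in the transcription of piRNA genes in the germline, most of which lie in broad domains of chromosome IV.

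The sequences below are those of members on which the results turn, read from the RefSeq genome of WBcel235, the assembly of ce11, on the strand of each tRNA gene. In these sequences, positions count from 1 at the first base of the gene and from -1 for the base before it. The selenocysteine tRNA gene K11H12.t1 is shown whole with 100 bases upstream (chrIV:658081-658266, + strand), because it is the single autosomal gene of its kind. Capitals mark GTCGG from -56 to -52 and TATAA from -30 to -26. Both were looked for after the data had been seen, GTCGG as the last 5 letters of TGTCGG, which this sequence does not hold.
K11H12.t1: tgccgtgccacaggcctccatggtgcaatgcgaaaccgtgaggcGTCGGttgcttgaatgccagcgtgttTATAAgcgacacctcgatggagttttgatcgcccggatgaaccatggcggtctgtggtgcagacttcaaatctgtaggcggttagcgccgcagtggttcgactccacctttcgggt

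Members among the strongest are shown with 80 bases before the gene and its first 10 bases. Capitals mark TGTCGG, a sequence taken from earlier work on these data. C27A2.t1 (isoleucine, chrII:5057511-5057600, − strand) and ZC412.t1 (phenylalanine, chrV:14876452-14876541, − strand) hold it from -5 to 1, across the start of the gene. Y57G11B.t1 (glycine, chrIV:14576684-14576773, − strand) holds it from -30 to -25. Y37A1B.t1 (alanine, chrIV:14013867-14013956, − strand) has no match in this window. The genes printed are not typical in this respect. From 100 bp before the gene to 10 bp inside it, TGTCGG stood at 14 of all 333 autosomal tRNA genes (4.20%). It was absent there from Y105C5A.t2, Y7A9D.t2 and Y73F8A.t1, which had higher signals than Y57G11B.t1, at rank 137.
C27A2.t1: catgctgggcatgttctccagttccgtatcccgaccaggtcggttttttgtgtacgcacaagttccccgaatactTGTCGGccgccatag
ZC412.t1: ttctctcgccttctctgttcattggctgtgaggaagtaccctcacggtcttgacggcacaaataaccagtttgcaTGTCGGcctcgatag
Y57G11B.t1: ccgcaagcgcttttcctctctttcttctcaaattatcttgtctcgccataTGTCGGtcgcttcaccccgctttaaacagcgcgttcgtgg
Y37A1B.t1: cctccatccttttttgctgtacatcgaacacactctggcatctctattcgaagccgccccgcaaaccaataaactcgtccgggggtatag

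The proline gene F02H6.t1 (chrIV:14225102-14225173, + strand) is 1 of 11 autosomal genes with the same 72 bases. It is printed as the example of identical genes with different signals, with capitals for a match to the A box core TNGNNNA from 8 to 14 and to the B box core GTTCNANNC from 52 to 60.
F02H6.t1: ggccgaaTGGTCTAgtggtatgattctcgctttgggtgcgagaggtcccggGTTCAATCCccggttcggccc

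The 80 bases before 3 of these copies follow, from the copy with the highest signal (F02H6.t1, chrIV:14225022-14225101, + strand), from a copy with a low one (ZK970.t1, chrII:10302319-10302398, + strand) and from a copy with no candidate (ZK970.t2, chrII:10304931-10305010, + strand). TGTCGG, again in capitals, stands before ZK970.t1 from -24 to -19. The region counted for ZK970.t1 is shared with the neighbouring gene ZK970.t4, which is not one of these copies.
F02H6.t1: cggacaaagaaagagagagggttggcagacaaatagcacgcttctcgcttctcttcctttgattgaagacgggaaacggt
ZK970.t1: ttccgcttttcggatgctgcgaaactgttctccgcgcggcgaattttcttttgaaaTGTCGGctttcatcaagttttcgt
ZK970.t2: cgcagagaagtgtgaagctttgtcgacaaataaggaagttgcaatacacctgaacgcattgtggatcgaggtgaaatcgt

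The regions at tRNA genes were strong for this experiment. The irreproducible discovery rate (IDR) threshold is meant to keep regions ranked alike in both replicates. Of the 269 members, 197 stood in the list of regions past it, against 14.8% of all autosomal candidates. That is 73.2% of members, with a 95% exact binomial interval from 67.5% to 78.4%. Here and below, such intervals cover counting error only, and regions are not replicates. The IDR list held the 4675 pooled candidates of highest signal, so membership in it and signal are the same measure read in different ways. Not each region in it ranked alike in both replicates. Of its 197 members, 184 were among the 4675 strongest regions of replicate 1 and 179 among those of replicate 2. The median signal was 182 over members and 25.3 over all autosomal candidates, a ratio of 7.21. For the pooled members found again in each replicate's list, the ratio was 6.35 in replicate 1 (261 regions) and 6.29 in replicate 2 (257 regions). With members chosen anew from the list of 1 replicate it was 6.16 in replicate 1 and 5.73 in replicate 2. Among regions in the IDR list, the median was 288 at tRNA genes and 156 over all 4007 autosomal ones. Members made up 54 of the 437 autosomal regions ranked 1 to 500 (12.4%), and 40 of the 18240 ranked 10001 to 30000 (0.219%).

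Counted by gene, 191 of the 333 autosomal tRNA genes had an IDR region within 300 bp of the 5′ end (57.4%, interval 51.8% to 62.7%). Another 24 had only a candidate outside the IDR list, and 118 had none. By the strongest 4675 regions of each replicate's own list, 196 genes were counted in replicate 1 and 188 in replicate 2. A gene's signal below is that of the strongest region in its window, and 32 of the 191 genes share that region with a neighbouring tRNA gene.

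Summits of the stronger members lay close to the start of the tRNA gene, about as many inside the gene as outside it. In the IDR list, the median summit lay 10 bp inside the gene, counting the first base as 0, and the quartiles lay 17 bp upstream and 57 bp downstream of that base. Of these 197 summits, 97 were inside the gene (49.2%), 67 upstream of it and 33 past its 3′ end, and 170 lay within 100 bp of the 5′ end (86.3%). Of the 72 members outside the IDR list, 6 had the summit inside the gene (8.33%) and 14 had it within 100 bp (19.4%). Their signals ran from 5.09 to 85.4. Many of them were second regions at a gene with a stronger one. The 2 summits at such a gene lay at least 199 bp apart, so a first summit near the start keeps the second away from it. The difference in position is thus partly built in. Among members found in both replicates' lists, the replicates' own summits in 191 IDR regions differed by a median of 15 bp, so a shift of a few bases between genes is within the replicate spread.

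**Figure D1:**
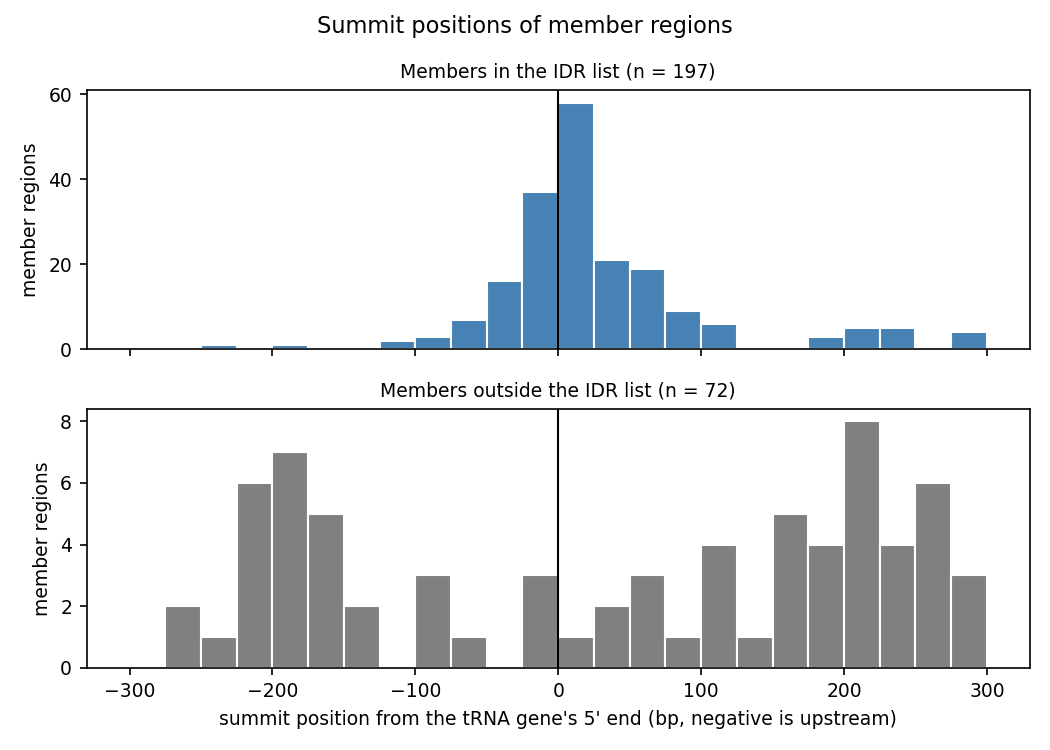
Summit position of each member from the 5′ end of its tRNA gene, in bp on the horizontal axis with negative values upstream, and the number of regions per 25 bp on the vertical axis. The 197 members in the IDR list, above, gather at the start of the gene, and the 72 outside it, below, are spread over the window with few near 0.

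Many of the weaker members were second regions at a gene that already had a stronger one. At 67 tRNA genes, 2 members lay within the window of the same gene, and at 66 of them they overlapped. Their summits were at least 199 bp apart, and the stronger region had a median of 5.76 times the signal of the weaker. The first region was in the IDR list at 63 of the 67 genes and the second at 19. The 2 lowest members of all were second regions of this kind. One, at the tyrosine gene C47E8.t1, had a signal of 5.51, against 116 for the first region there. The other, at the proline gene T22F3.t1, had 5.09, against 99.4. Counts of genes below take the strongest region at each gene, and counts of members include such second regions.

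Signal at tRNA genes differed by their place on the genome. Chromosome IV holds its piRNA genes in a left domain (4500001 to 7000000) and a right domain (13500001 to 17200000), and the split of tRNA genes by these domains was made after values had been seen. In the right domain, 30 of 31 tRNA genes had an IDR region, against 154 of 293 outside both domains. As background, 21.3% of all candidates in the right domain were in the IDR list, 8.57% in the left domain and 13.8% on the autosomes outside both. The one right-domain gene without a candidate, the histidine gene Y40H7A.t1, lies 381 bp from the next tRNA gene, which had one. Among genes with an IDR region, the signal in the right domain ran from 392 over a median of 2393 to 5110. Outside both domains it ran from 88.5 over a median of 231 to 14871. The ratio of the medians was 10.4 in the pooled list, 11.2 in replicate 1 and 8.74 in replicate 2. Most right-domain genes stood above most of the others, but the ranges overlap.

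Regions of other kinds in that stretch were read beside these values. When all candidates were taken, weak ones included, the median was 42.1 in the right domain and 22.3 outside both. Over all IDR regions, which are kept by a single lower limit of signal, the median in the right domain was 133, against 166 on the autosomes outside both domains, a ratio of 0.801. Set against the other IDR regions of the same place, the 36 right-domain members in the list had a median of 1854 and the 1128 others one of 130, a ratio of 14.3. In the left domain the 11 members had a median of 1061 and the 231 others one of 205, a ratio of 5.18. Outside both domains these medians were 222 for 150 members and 163 for 2451 others, a ratio of 1.36. Of the 11 regions in the right domain that ranked in the first 100 of the pooled list, 5 were at tRNA genes, against 4 of 75 outside both domains. For ranks 1 to 500 these counts were 28 of 150 and 20 of 250.

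Along chromosome IV the tRNA genes were taken stretch by stretch. Before the left domain, where 13.2% of all candidates were in the IDR list, 11 of 17 tRNA genes had an IDR region. Their signals ran from 97.5 over a median of 184 to 3940, the last at K11H12.t1, which is above most right-domain genes. In the left domain it was 7 of 9 genes, with signals between 282 and 2012 and a median of 1100. The highest there was the lysine gene B0350.t1. Between the domains, where 10.9% of all candidates were in the list, 8 of 12 genes had an IDR region, and their signals lay between 273 and 828. In the right domain all but 2 of the 30 genes with a region stood above 828, the exceptions being the glycine genes Y51H4A.t3 at 392 and Y51H4A.t5 at 412. No tRNA gene lies on chromosome IV past the right domain. By chromosome, an IDR region stood at 56 of 69 genes on IV, 36 of 57 on II, 43 of 78 on V, 28 of 63 on III and 28 of 66 on I. Of all candidates on the same chromosomes, 15.1% were in the IDR list on IV, 14.9% on II, 15.5% on V, 13.5% on III and 13.8% on I.

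**Figure D2:**
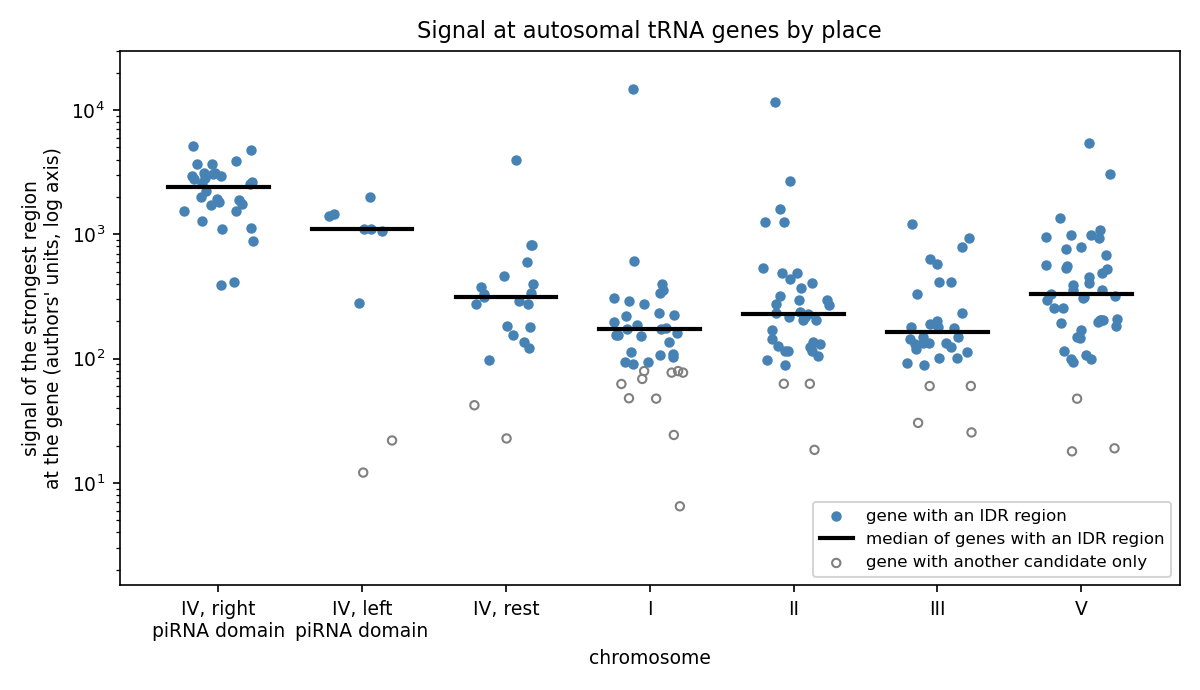
Signal of the strongest region at each autosomal tRNA gene with a candidate (vertical, log axis, authors' units) by chromosome, with chromosome IV split by piRNA domain. Filled points are genes with an IDR region, open points genes with another candidate only, and bars are medians of the filled points. The bar stands at 2393 in the right domain and at 1100 in the left domain, and the bars elsewhere lie below both.

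Other features of the right domain moved with these values, and their part in the signal was not tested. Of its 31 tRNA genes, 21 lay in no protein-coding gene, against 115 of 293 outside both domains. A piRNA 5′ end lay within 300 bp of the summit in 18 of the 38 right-domain members, against 5 of the other 231. The domain is defined by its piRNA genes: over all right-domain candidates the share was 72.9%, and over the IDR regions there 71.4%, against 47.4% of the members (interval 31.0% to 64.2%). The strongest regions of right-domain genes with such a piRNA 5′ end had signals from 886 over a median of 2688 to 5110 (14 regions), and those without it from 392 over 1908 to 4744 (15 regions). These ranges overlap over nearly their whole length. In the lists of the 2 replicates, the ranks of all 29 strongest regions of right-domain genes lay within a factor of 2 of each other, and 174 of all 190 such regions did.

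**Figure D3:**
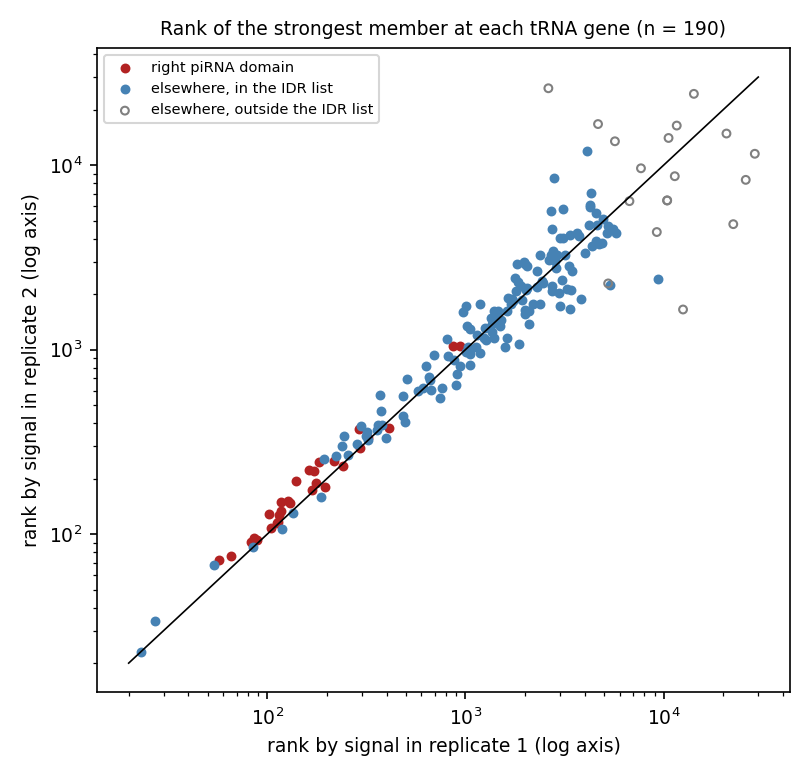
Rank by signal of the strongest member at each tRNA gene in the list of replicate 1 (horizontal) and of replicate 2 (vertical), both on log axes, for the 190 found in both lists. The line marks equal rank. Red points, in the right piRNA domain, lie between rank 57 and rank 1042 close to the line, and the open points, outside the IDR list, scatter widely.

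Genes with the same sequence carried very different signals. The 333 genes held 137 distinct sequences, and 239 genes fell into 43 families of at least 2 autosomal copies with identical gene bases. In 27 families some copies had an IDR region while others had no candidate at all. In 11 families every copy had an IDR region, and in 4 none did. No autosomal tRNA gene shared its gene together with 100 bp on either side with another. Identical genes thus differed somewhere in these flanks, and neither the amount nor the side of the difference was measured. How reads that match several copies were placed is not stated in the labels or headers, and its part in these values was not tested.

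Family by family, the copies in the right domain had the higher median. In 12 families a candidate stood at copies both in the right domain and outside both domains, and the right-domain median was higher in 12 of the 12, in the pooled list and in the list of each replicate. The ratio of the 2 medians ran from 3.44 for an alanine family to 27.2 for the largest glycine family, with a median of 11.5. In 11 of the 12 the lowest right-domain copy stood above the highest copy outside, in each of the 3 lists. The exception was the 15-copy lysine family. Its right-domain copy, Y105C5A.t1, had a signal of 2950, against 91.6 to 14871 at the copies outside, and the highest of those, M01E5.t1, is the gene whose region also covers an SL RNA gene. Some copies share 1 region with a neighbour, as both right-domain glutamate copies, Y105C5B.t2 and Y105C5B.t3, do. Outside the domains the neighbour can be a gene of another family, as with the proline copy T23F1.t2 and the lysine gene T23F1.t1. These counts rest on few copies. Each histidine family had 1 copy outside, and the lysine, proline and arginine families had 1 copy each in the right domain. The pooled list is made of the 2 replicates and the split by domain followed sight of the values, so the 3 lists are not independent support.

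**Figure D4:**
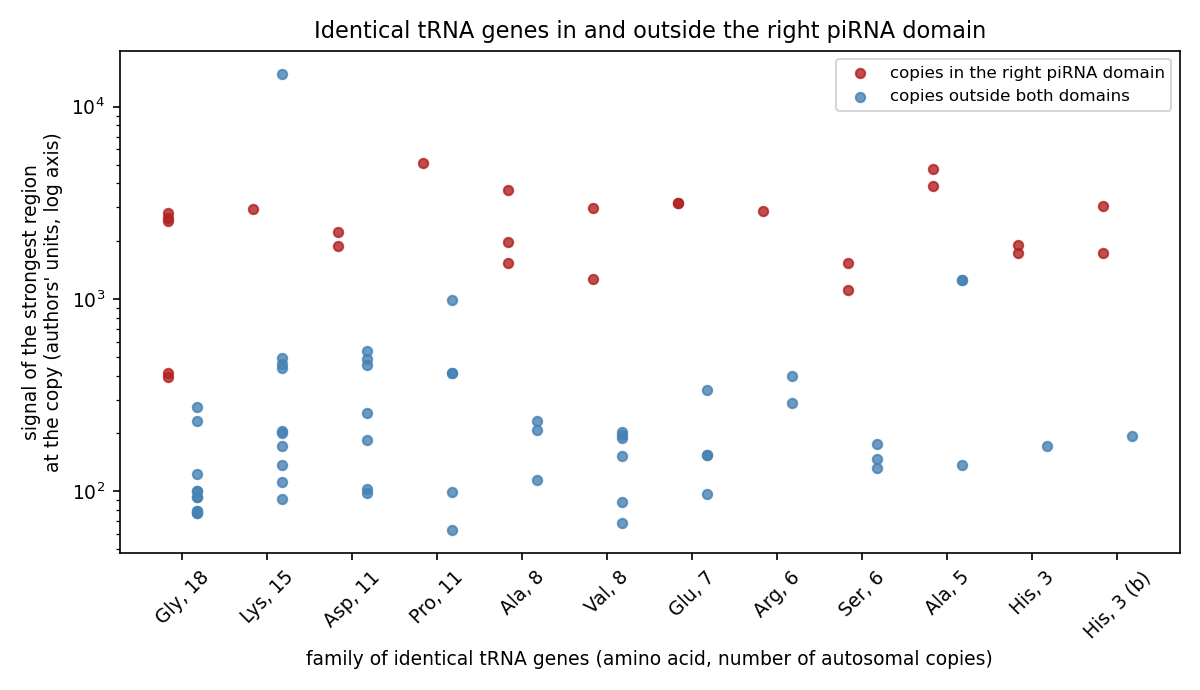
Signal (log axis, authors' units) at each copy with a candidate in the 12 families of identical tRNA genes that have copies in the right piRNA domain, in red on the left, and outside both domains, in blue on the right. Families are named by amino acid and number of autosomal copies, and (b) marks the second histidine family of 3. In all but the lysine family, every red point lies above every blue one.

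The 11 proline copies show the spread within a family. F02H6.t1 had a signal of 5110 in the pooled list, with 2907 in the list of replicate 1 and 2252 in that of replicate 2. T23F1.t2 followed with 993, in a region shared with the lysine gene T23F1.t1, and W09D6.t1 and W09D6.t2 shared a region of 414. T22F3.t1 had 99.4, in a region shared with T22F3.t4, a proline gene outside this family. Below it ZK970.t1 had a candidate of 62.8 outside the IDR list, and the remaining 5 copies had no candidate. By these regions the strongest copy had 81.4 times the signal of the weakest with a candidate, with the same gene bases and the same A box and B box. The weakest value cannot be given to ZK970.t1 alone, since the summit lay 155 bp upstream of it. The same region was the strongest at ZK970.t4, a proline gene outside this family whose 5′ end is 169 bp from that of ZK970.t1. TGTCGG stood before ZK970.t1 and not before F02H6.t1, as the printed sequences show.

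The 5 phenylalanine copies reached further apart outside the domains. ZC412.t1, on chromosome V, had a signal of 5431, with 2978 in replicate 1 and 2465 in replicate 2. The copies C06G4.t1, F22B7.t3 and F22B7.t4 had candidates of 60.2, 60.2 and 30.4 outside the IDR list, and Y66D12A.t1 had none. The highest was 179 times the lowest, so 1 copy stood alone. In the glycine family of 18 copies, the strongest, Y43D4A.t1 at 2792, and the next strong ones were in the right domain, and the lowest copy with a candidate was C12C8.t6 at 77.2. The 13-copy asparagine family has no copy in either domain, and its 5 copies with a region lay between 288 and 795.

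The 10 members of highest signal belonged to 10 genes, 6 of them in the right domain. M01E5.t1, a lysine gene on chromosome I, led with a pooled signal of 14871 at rank 23. Its signal was 7005 in replicate 1 and 7911 in replicate 2, at rank 23 in both lists. Its summit lay 75 bp upstream of the gene and 57 bp from the 5′ end of the SL RNA gene sls-2.9, one of the genes for the spliced leader, so the region cannot be given to the tRNA gene alone. C27A2.t1, an isoleucine gene on chromosome II, followed at rank 31 with 11558. It had 5953 in replicate 1 and 5650 in replicate 2, and piRNA genes aside, the nearest other small RNA 5′ end was 47694 bp from its summit, which makes it the strongest member with none within 500 bp. Its summit lay 17 bp upstream of the gene, as did that of ZC412.t1, the other gene with TGTCGG printed across its start. The summits at ZK507.t1 and ZC412.t2, without TGTCGG there, lay at the same distance, which is the lower quartile over members in the IDR list.

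K11H12.t1, the selenocysteine tRNA gene, ranked 85 in the pooled list and in each replicate's list, with a signal of 3940 pooled, 1965 in replicate 1 and 2003 in replicate 2. Its summit lay 61 bp upstream of the gene in the pooled list, 63 bp in replicate 1 and 57 bp in replicate 2, and these summits were 5, 7 and 1 bp upstream of the GTCGG in the printed sequence. Over all members in the IDR list the lower quartile of the summits was 17 bp upstream, so this one is among the farther upstream. GTCGG was found on the gene's strand in the 100 bp before 5.71% of autosomal tRNA genes and 1.86% of autosomal protein-coding genes. TATAA was found in the 50 bp before 3.60% of these tRNA genes and 13.6% of the protein-coding genes. The B box core was found in K11H12.t1, and the A box core TNGNNNA was not found in its first 25 bases. These matches are descriptions of letters and not of bound sites.

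The other members in the first 10 had summits within 60 bp of the start of the gene and replicate ranks close to each other. Besides F02H6.t1, the right-domain genes among them were Y37A1B.t1, Y105C5A.t2 and Y7A9D.t2 for alanine, Y73F8A.t1 for valine and Y105C5B.t2 for glutamate, with signals from 4744 for Y37A1B.t1 to 3142 for Y105C5B.t2. The summit was 14 bp upstream of Y37A1B.t1 in the pooled list and in both replicates, and 16 bp inside Y73F8A.t1.

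The amino acids differed in signal, and also in how many of their genes lay in the piRNA domains. In calls none stood apart: the interval of each held 57.4%, the share of all autosomal tRNA genes with an IDR region. An IDR region stood at 15 of 21 alanine genes, 13 of 17 valine genes, 12 of 15 aspartate genes and 19 of 28 lysine genes. It stood at 5 of 14 asparagine genes, 3 of 8 phenylalanine genes, 7 of 17 arginine genes and 7 of 16 isoleucine genes. With so few genes each, the intervals overlap: for alanine it ran from 47.8% to 88.7% and for asparagine from 12.8% to 64.9%. Over genes with an IDR region, the median signal was highest for histidine, at 1740, and next for alanine, at 1253, among amino acids with at least 5 such genes. Of the 11 histidine genes 7 lie in the domains, and the 2 histidine genes with a candidate outside them had 171 and 194. For alanine the median outside the domains was 577, for glycine 199 against 254 on all autosomes, and for serine 148 against 177. Of the highest members per amino acid, those outside the domains included T19C4.t1 for leucine at 3047, ZK1067.t1 for tyrosine at 2704 and F11H8.t1 for threonine at 1218. Asparagine was led by ZK507.t1 at 795 and cysteine by ZC412.t2 at 688, and neither has a gene in the domains. Within the domains, Y57G11C.t1 led histidine at 3037, F13G11.t1 arginine at 2852, Y43D4A.t1 glycine at 2792, Y105C5B.t4 aspartate at 2234, Y73F8A.t3 serine at 1543, Y4C6B.t1 glutamine at 1098 and Y4C6B.t2 tryptophan at 1061. The methionine leader was C16D9.t3, outside them, at 960.

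**Figure D5:**
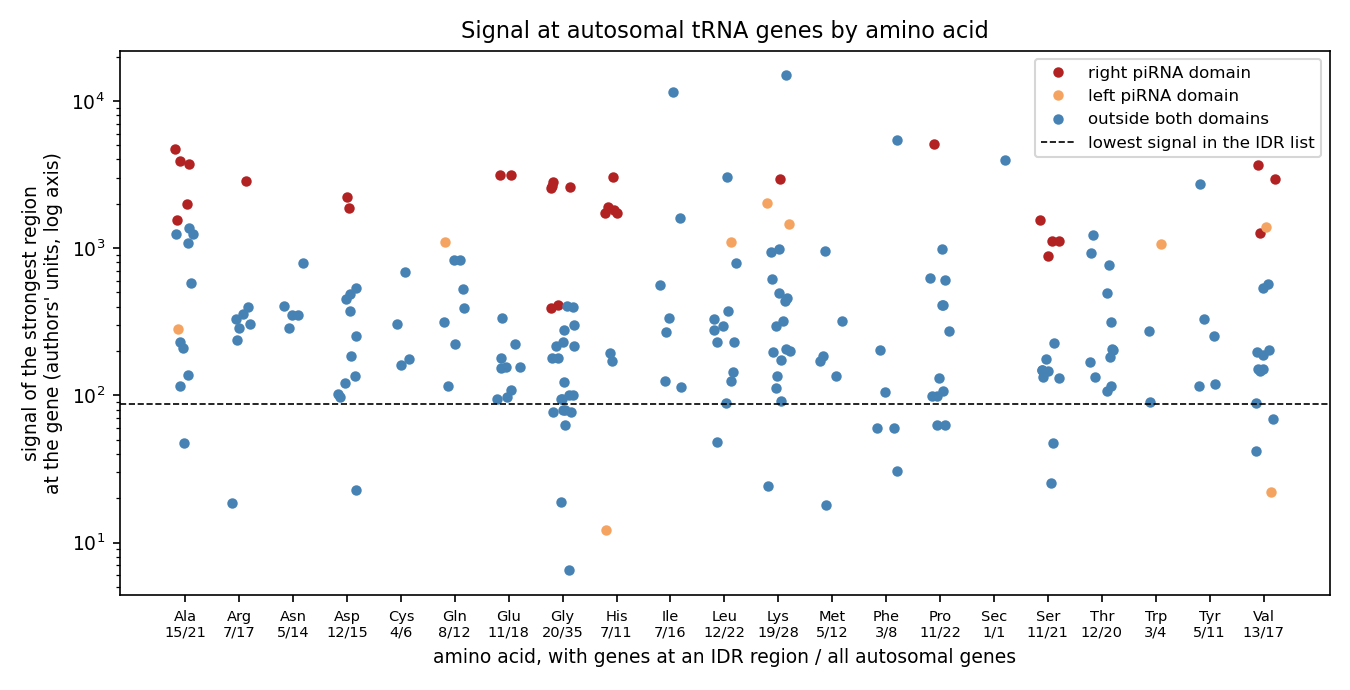
Signal of the strongest region at each autosomal tRNA gene with a candidate (vertical, log axis, authors' units) by amino acid, with genes at an IDR region over all autosomal genes under each name. Colours give the place, and the dashed line is the lowest signal in the IDR list, 87.3. The red points of the right domain lead alanine, arginine, aspartate, glutamate, glycine, histidine, proline, serine and valine.

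Clustered and lone tRNA genes had IDR regions at shares whose intervals overlap. Genes with another tRNA gene's 5′ end within 1000 bp had an IDR region in 60 of 99 cases (60.6%, interval 50.3% to 70.3%), and the others in 131 of 234 (56.0%, interval 49.4% to 62.4%). These intervals count genes that share a region separately. By the strongest regions of each replicate's own list, the clustered and other shares were 56.6% and 59.8% in replicate 1, the reverse order. In replicate 2 they were 57.6% and 56.0%. Outside the domains the share was 55.3% for clustered and 51.4% for lone genes, with a median signal at genes with a region of 217 for clustered and 232 for lone genes. Of 38 pairs, both genes had an IDR region in 17 and neither in 13. A region between close neighbours counts for both genes, and 32 genes with an IDR region share their strongest region in this way. Agreement within pairs is thus partly set by the 300 bp window. The 2 clusters of 4 genes contrast: Y65A5A.t1 to Y65A5A.t4, for alanine, alanine, valine and histidine in the right domain, each had a region between 1275 and 1991, while the 4 glycine genes C12C8.t2 to C12C8.t5 on chromosome I had signals of 79.4 to 93.9, with 2 in the IDR list. A tRNA gene outside protein-coding genes had an IDR region in 88 of 140 cases, one inside a protein-coding gene on the same strand in 65 of 115, and on the opposite strand in 38 of 78. Outside the domains these were 65 of 115, 59 of 109 and 30 of 69, so the order stayed and the intervals overlap.

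An IDR region stood at 155 of the 247 genes with an identical copy anywhere in the genome (62.8%, interval 56.4% to 68.8%) and at 36 of the 86 single-copy genes (41.9%, interval 31.3% to 53.0%). Outside the domains it stood at 56.8% of genes with a copy and 41.3% of single-copy genes, and there the intervals overlap. K11H12.t1 is among the single-copy genes with a region.

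Other small RNA genes were seldom near. A 5′ end of a snRNA, snoRNA, SL RNA, miRNA, rRNA, RNase P or MRP RNA gene lay within 300 bp of the summit in 1 of 269 members, the M01E5.t1 region. Within 1000 bp there were 4 and within 2000 bp 9, and the median distance was 56237 bp. The 3 others within 1000 bp were Y73F8A.t1 with the snoRNA gene Y73F8A.1175 at 958 bp, T19C4.t1 with the snoRNA gene T19C4.12 at 817 bp and the glycine gene T22A3.t4 with mir-1828 at 572 bp, the last with a signal of 6.49. Without the M01E5.t1 region the median signal of members was 181.

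Letters of the tRNA promoter were searched in the genes. The B box core GTTCNANNC was found in the gene, on its own strand, in 96.9% of genes with an IDR region, 95.8% of genes with another candidate only and 91.5% of genes with none. The A box core TNGNNNA in the first 25 bases was found in 98.4%, 87.5% and 97.5% of them. This short form was chosen after the longer core TNGNNNANG had been found in 15.2%, 16.7% and 20.3%. A run of TTTT within 40 bp after the gene was found in 99.5%, 100% and 97.5%. TGTCGG, searched from 100 bp before the gene to 10 bp inside it on the gene's strand, stood at 11 of 191 genes with an IDR region (5.76%), and at 3 of the 142 others. In the 100 bp before the gene on either strand it stood at 5.24% of genes with an IDR region, at 4.23% of the other tRNA genes and at 1.68% of autosomal protein-coding genes. The 11 genes had signals from 89.2 over a median of 1098 to 11558, and the 180 genes with an IDR region and no match had signals from 88.5 over a median of 298 to 14871. Besides the genes printed above, K12H4.t1, C06B8.t1, C16D9.t2, Y73F8A.t3, Y73F8A.t4 and Y4C6B.t1 were among them, with signals between 631 and 1543. The lowest were T05A8.t2 at 89.2 and C47E8.t1 at 116. Y57G11B.t1, Y73F8A.t3 and Y73F8A.t4 lie in the right piRNA domain. Y4C6B.t1, whose signal is the median of 1098, lies in the left one. Signals at tRNA genes were higher in both domains, so the 2 medians are not matched for place. The member at K12H4.t1 was not found again in the list of replicate 2.

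Within 100 bp of the summit and on either strand, TGTCGG was found at a smaller share of the strong members than of all strong candidates. For ranks 1 to 500 it stood at 12 of 54 members (22.2%, interval 12.04% to 35.6%), against 210 of all 437 autosomal candidates (48.1%, interval 43.3% to 52.9%). For ranks 501 to 4675 the shares were 3.50% of members and 18.5% of all candidates. The same letters read backwards, GGCTGT, stood at 7.41% of the 54 members and 8.92% of the 437. Members are part of each of these totals.

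On chromosome X, 184 of 272 tRNA genes had an IDR region, and 23.1% of all X candidates were in the IDR list. The median signal over tRNA genes with an IDR region was 307 on the autosomes and 270 on X. The upper ends differed: the upper quartile was 951 and the highest 14871 on the autosomes, against 375 and 784 on X. For autosomal genes outside both piRNA domains, the median was 231, below that on X, and the upper quartile was 414. The higher autosomal median is therefore not seen once the domains are left out. The summits of IDR members were inside the gene in 49.2% of cases on the autosomes and in 55.1% on X, with intervals that overlap.

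At the limits of the rule, the last members inside the 300 bp window were the regions at F57G8.t2, 298 bp downstream of its 5′ end with a signal of 404, and at Y54G2A.t3, 296 bp downstream with 66.7. The first candidates outside it were at B0212.t1, 310 bp downstream with 1191, and at W05B2.t1, 317 bp upstream with 19.8. B0212.t1 kept a weaker member of 603 inside the window. On either side of the IDR limit, which lay at a signal of 87.3, were the regions at T28D6.t1 with 88.5 and at T03E6.t1 with 85.4. The summit at T28D6.t1 was 1 bp upstream of the gene, while the region at T03E6.t1 was a second one, 228 bp upstream. Of all members, 261 were found again in the list of replicate 1 and 257 in that of replicate 2, and 250 in both (92.9%).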

How the data were processed

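The authors deposited narrowPeak lists in ce11 for replicate 1, replicate 2 and the pooled replicates, each with 30000 candidate regions, and the pooled regions that met the IDR threshold. A listing deposited with the samples gives alignments of the replicates and a control as the source, and aligner and peak caller were not given in the sources used here. The deposited signal was used within 1 list at a time. The −log10 q-value deposited with each region has the same value in all IDR regions and was not used for ranking. The deposited summit offset was added to the region's start and counted from 1. The lists give no read counts, so depth is unknown. The labels give anti-GFP in the description and snpc-4 as the antibody entry; the description was followed.

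Gene positions came from Ensembl release 115 (WBcel235), and names, amino acids and bases from RefSeq, matched by WormBase identifier for 333 of 333 autosomal tRNA genes; amino acid is undetermined for 2, and no anticodon was used. A replicate's region was matched to a member as the one holding the pooled summit with the nearest own summit. The genes named were the 10 strongest members, the strongest per amino acid and without another small RNA 5′ end within 500 bp, the 2 weakest, and those at either limit. Others were named after their values were seen, as were the families shown in full. Members and lists were chosen with earlier results of these data known. Intervals are exact binomial at 95%. Python 3.11.15, numpy 2.4.6, pandas 2.3.3, scipy 1.17.1 and matplotlib 3.10.9 were used, and the assignment of summits to genes was tested on simulated summits.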

Additional observations from a re-analysis of the deposited data

How the results depend on the processing

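With a window of 150 bp, 89.4% of members were in the IDR list, 55.0% of tRNA genes had an IDR region, the signal ratio of members to all autosomal candidates was 9.34, the median summit lay at 8 bp and 51.8% of summits were inside the gene. With overlapping regions merged these were 90.9%, 55.6%, 8.19, 9 bp and 50.8%, beside 20.4% of all merged autosomal regions in the IDR list. With the stronger 50% of the IDR list alone, 53.5% of members and 42.9% of genes counted. The share of all autosomal candidates under this stricter limit was not computed, and the 14.8% given above belongs to the whole IDR list. With members chosen from 1 replicate's list at a time, in place of the pooled one, the ranges were 70.5% to 72.7% of members, 56.5% to 58.9% of genes, 5.73 to 6.16 for the ratio, 8 to 10 bp for the summit and 29.2% to 35.5% inside the gene. The B box core GTTCGANNC was found in 72.3% of genes with an IDR region, the A box core TNGNNNANG in 15.2% and TNGNNNA in 98.4%, the last chosen after seeing the data. With a 50% overlap of each region, 82.5% of members were found in both replicates, against 92.9%. The cause of these shifts was not tested. Counting some printed above, 20 values stayed within the replicate or counting spread. Among them were those with a 500 bp window, with cluster distances of 500 and 2000 bp and without the M01E5.t1 region. Of the values from 1 replicate's list, 72.7% of members, both shares of genes, 10 bp and 35.5% inside the gene also stayed within it. The splits by piRNA domain, rank and segment of chromosome IV and the TATAA and GTCGG searches were added after seeing the data. No paired analysis was possible because there is 1 group and no test.

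Depth is unknown, so a tRNA gene without a candidate is one not detectable among 30000 regions, not one shown to lack SNPC-4. Whole animals were used, so the cells behind a region cannot be told apart, and a GFP fusion from 1 strain was profiled.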
